A study of Mus musculus with 12 samples.

Results

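The comparison described here is the difference between the responses of bERKO and wild-type (WT) mouse granulosa cells to human chorionic gonadotropin (hCG). It was tested for each of 18193 genes, and the 239 genes whose responses differed are the ones sorted and described. The bERKO mice lack estrogen receptor beta, the estrogen receptor that granulosa cells chiefly use, and the WT mice carry it. All 12 arrays of the series enter it, 3 in each of 4 groups: bERKO hCG, bERKO PMSG, WT hCG and WT PMSG. All groups had 48 h of pregnant mare serum gonadotropin (PMSG), which stands in for follicle-stimulating hormone, followed in the hCG groups by 4 h of hCG, which stands in for luteinizing hormone. Per the labels, the mice were 3 weeks old and the cells, labelled preovulatory granulosa cells, were cut from antral follicles by laser. The labels call the arrays biological replicates, and neither the number of animals behind an array nor the mutant allele's construction is described in the labels. The p-values therefore measure the spread between these arrays.

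Granulosa cells line the follicle and feed the oocyte. The ovulatory surge of luteinizing hormone acts through cyclic AMP and, within hours, shuts down the preovulatory program of follicle growth and switches on genes of cumulus expansion, follicle rupture and progesterone synthesis. Mice without estrogen receptor beta are known for subfertility and for follicles that often fail to rupture. The question was which genes answer hCG differently when the receptor is missing.

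For each of 18193 genes, the hCG response of a genotype was the mean log2(intensity + 16) on its hCG arrays minus that on its PMSG arrays, and the interaction was the bERKO response minus the WT response. A positive interaction therefore means that hCG moved the gene up more, or down less, in bERKO than in WT. A gene passed where its adjusted p, from limma with Benjamini-Hochberg adjustment over all genes, was under 0.05. The offset of 16 sets a floor of 4 on this scale, so the size of a change that starts or ends near 4 depends on the offset. In tissue RNA of this kind, fewer cells of a type and less RNA per cell cannot be told apart.

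The arrays were of uneven quality. The ratio of 3' to 5' control probe sets for Gapdh, a measure of how complete the copied RNA was, reached 23.74 for replicate 3 of bERKO PMSG and 32.16 for replicate 1 of WT hCG, while the remaining arrays had 4.72 to 11.19. Since WT hCG replicate 1 lies within the WT response, every interaction below was also computed without it. The mean of 8 measured granulosa markers, among them Fshr, Foxl2, Amh and Inha, lay between 10.88 and 12.34 on all 12 arrays, lowest in bERKO hCG (10.88 to 11.13), and 1 of the 8 had all arrays under 5 in each WT group. Esr2, the gene of the missing receptor, measured 8.34, 8.13 and 8.53 in bERKO hCG, 8.19, 8.64 and 8.13 in bERKO PMSG, 8.68, 9.52 and 8.78 in WT hCG and 10.33, 9.01 and 9.33 in WT PMSG. It was lower in every bERKO array than in every WT array of the same treatment. The gap of bERKO minus WT passed neither after PMSG (-1.24, adjusted p = 0.307, limma) nor after hCG (-0.66, adjusted p = 0.397, limma). The interaction of Esr2, 0.58 (SE 0.52), did not pass (adjusted p = 0.643, limma). Whether its only probe set reads the disrupted exons is unknown here, which limits it as a check of genotype.

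hCG responses differed between the genotypes for 239 genes, 1.31% of those tested: 123 had a positive interaction (0.676%) and 116 a negative one (0.638%). At an unadjusted p under 0.05 there were 2783 genes (15.3%). The median interaction was 3.47 among the positive genes and -2.86 among the negative ones, sizes that follow in part from passing, since no interaction under 1.48 in size passed. Over all genes the median was -0.11, and 0.55 for its absolute size. At the edge of the threshold, Nfkbiz and Akr1c18 passed at an adjusted p of 0.04995, and Ano4, at 0.0501, did not.

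The genotype gap of these genes turned round with hCG. In 230 of the 239 genes, bERKO lay on one side of WT after PMSG and on the other side after hCG, which was the case for 53.4% of all genes. The positive genes were lower in bERKO after PMSG by a median of -1.18 and higher after hCG by a median of 2.22, and the negative genes had medians of 0.82 after PMSG and -2.06 after hCG. The gap was the larger one after hCG in 195 of the 239, and in 56.0% of all genes. It passed on its own after hCG for 183 of them and after PMSG for 2. Over all genes the gap passed for 3.09% after hCG, 1.55% higher and 1.54% lower in bERKO, and for 0.011% after PMSG, every one lower in bERKO (0.011%). Because the interaction is built from these gaps, the counts describe the 239 genes and are no further test of them. The highest of the 4 group means was that of bERKO hCG in 105 of the 123 positive genes, and in 24.2% of all genes. The lowest was that of bERKO hCG in 110 of the 116 negative genes, and in 37.4% of all genes.

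Sorted by pattern, most of the 239 genes had a response that passed in bERKO and not in WT. This was so for 212 of the 239 genes, and for 17.6% of all genes. In 13 genes the WT response alone passed, in 8 both passed in opposite directions, in 4 both passed in the same direction, each with the larger response in bERKO, and in 2 neither passed. Over all genes the WT response alone passed for 0.687%, both in opposite directions for 0.044% and both in the same direction for 1.35%. The interaction passed for 6.64% of all genes in the class of bERKO only and for 10.4% of those in WT only. The number of genes in bERKO only thus goes with the larger number of calls in bERKO. No gene with both responses in the same direction had a passing interaction with the larger response in WT. The sorting depends on unequal thresholds, although both responses of a gene share 1 standard error. With 18.9% of genes called in bERKO and 2.08% in WT, an unadjusted p of up to 0.00946 passed for the bERKO response and up to 0.00104 for the WT response. Among the 212 genes, 82 had a WT response of under 0.5 in size, 71 had one of at least 1, and in 146 it pointed the other way. The responses of the genotypes pointed in opposite directions for 36.4% of all genes. When a response was counted from a size of 1 in either genotype, 140 genes responded in bERKO only, 15 in WT only, 69 in opposite directions and 14 in the same direction, and 1 in neither.

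**Figure D1:**
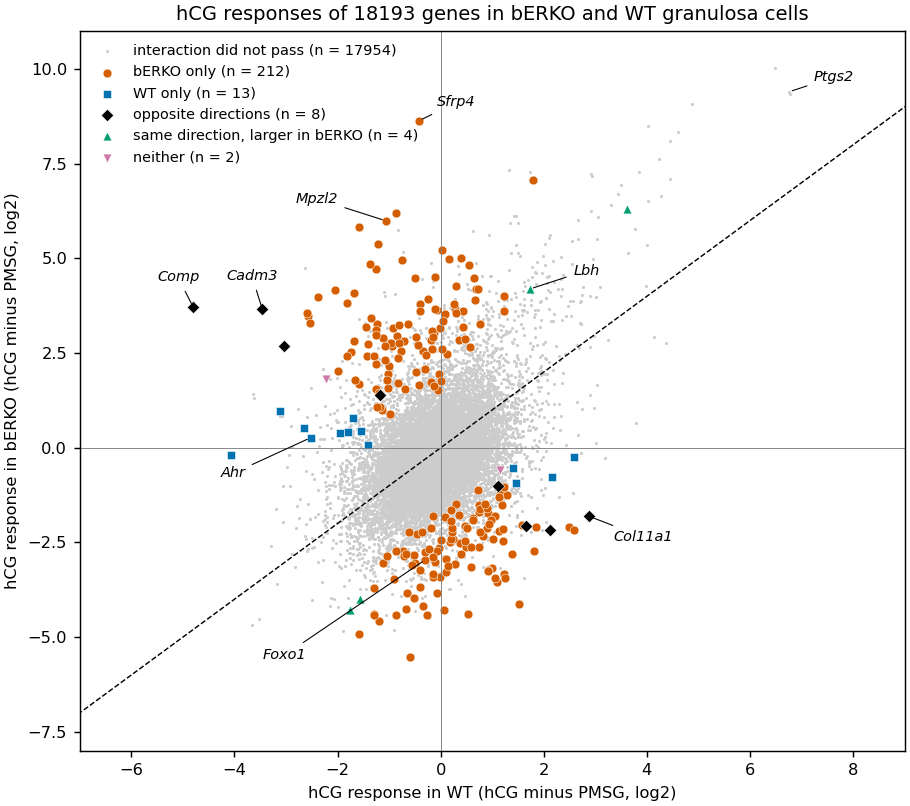
Response to hCG of 18193 genes, with the bERKO response on the vertical axis and the WT response on the horizontal axis (log2 differences of group means, 3 arrays per group). Grey points are genes whose interaction did not pass, coloured symbols are the 239 genes that passed, by pattern, and the dashed line marks equal responses. Most coloured points lie far from 0 on the vertical axis and within about 2 of 0 on the horizontal one, and the black diamonds are the 8 genes with opposite responses.

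Across all 18193 genes the responses ran together to a moderate degree, with a Pearson r of 0.41 and a Spearman rho of 0.36, a description over genes, which are not independent replicates. The 2 responses share no array. The bERKO response passed for 1283 genes upward (7.05%) and 2164 downward (11.9%), and the WT response for 133 upward (0.731%) and 245 downward (1.35%). The response was larger in size in bERKO for 63.2% of all genes. Of the 245 genes whose responses passed in the same direction, the estimate was larger in bERKO for 151, and the interaction passed for 4.

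Without WT hCG replicate 1, 115 genes passed (0.632%), 61 with a positive (0.335%) and 54 with a negative interaction (0.297%). Of these 115 genes, 106 (92.2%) were among the 239, which is 44.4% of the 239. All 239 kept the sign of their interaction, and in 178 its size was smaller without the array. They were chosen with that array included, and no interaction under 1.48 in size passed, so kept signs show little about stability. Without the array the median interaction was 3.27 over the positive genes and -2.68 over the negative ones. By pattern, 98 of the 115 responded in bERKO only, 7 in opposite directions, 7 in the same direction with the larger response in bERKO, and 3 in WT only. Of the 106 genes shared by both fits, 97 kept their class. Leaving out any other array changed the count too: it fell to 81 without bERKO hCG replicate 2, 89 without bERKO hCG replicate 1, 90 without WT PMSG replicate 3, 108 without WT PMSG replicate 1, 118 without bERKO PMSG replicate 1, 125 without WT hCG replicate 2, 133 without WT PMSG replicate 2 and 141 without bERKO PMSG replicate 3. It was 176 without bERKO hCG replicate 3, 210 without bERKO PMSG replicate 2 and 408 without WT hCG replicate 3. A core of 69 genes, 36 positive and 33 negative, passed in all 12 of these fits.

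**Figure D2:**
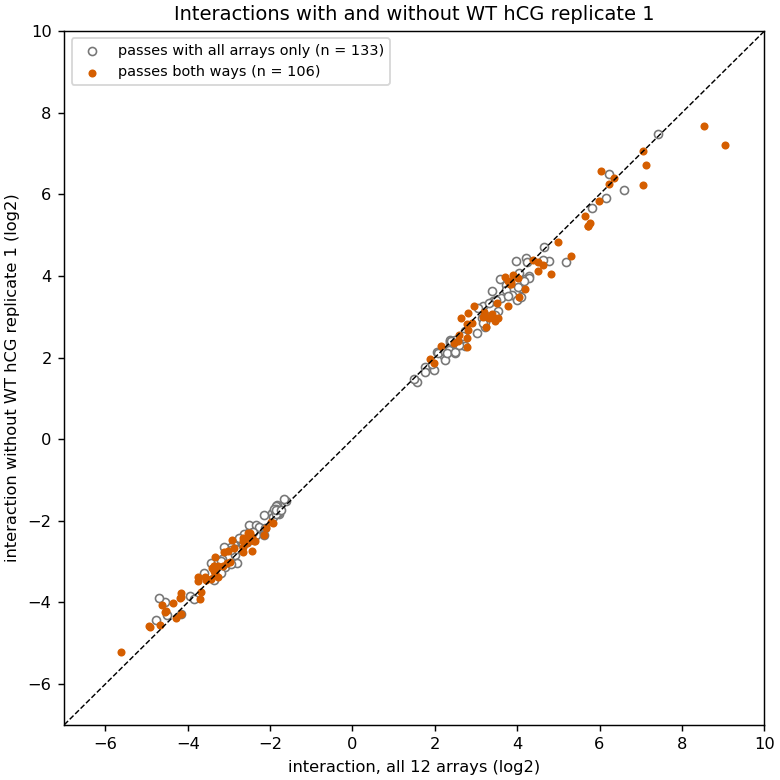
Interaction of the 239 passing genes with all 12 arrays (horizontal axis) and without WT hCG replicate 1 (vertical axis), both as log2 values. Filled points passed both ways (106 genes), open points with all arrays only (133 genes), and the dashed line marks equal values. All points lie near the line and none crosses 0, for genes chosen with all 12 arrays.

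The genes with opposite responses are described first, beginning with the promoters of the pair with the smallest p in each direction, Cadm3 and Hecw2. Shown are the 250 bases before the annotated start, from RefSeq on build GRCm38.p6, each 5′ to 3′ on the minus strand. They are shown because these are the clearest reversals of an hCG response. Capitals mark a single site of the cyclic AMP response element (TGACG or its complement) or of the estrogen response element (AGGTCA or its complement).
Cadm3 (chr1:173367696-173367945): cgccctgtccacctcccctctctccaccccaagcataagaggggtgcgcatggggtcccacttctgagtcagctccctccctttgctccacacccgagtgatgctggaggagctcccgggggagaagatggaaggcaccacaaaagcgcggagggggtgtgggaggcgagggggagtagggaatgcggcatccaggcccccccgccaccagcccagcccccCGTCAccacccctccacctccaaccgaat
Hecw2 (chr1:54195035-54195284): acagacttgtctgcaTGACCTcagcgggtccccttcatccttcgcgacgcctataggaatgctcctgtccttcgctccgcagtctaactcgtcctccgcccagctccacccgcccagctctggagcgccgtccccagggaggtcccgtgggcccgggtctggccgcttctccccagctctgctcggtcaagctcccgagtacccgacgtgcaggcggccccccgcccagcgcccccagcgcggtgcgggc

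Cadm3 had a single cyclic AMP site that began 29 bases before the start, and Hecw2 had a single estrogen site that began 235 bases before it. Such letters are common. Windows of this kind were found for 94 of the 123 positive genes, 92 of the 116 negative genes and 14367 of all genes tested. On either strand, TGACG was in 19.1% of the positive windows, 19.6% of the negative windows and 23.2% of all windows, a count that includes the full cyclic AMP element TGACGTCA. The full element was in 3.19% of the positive, 2.17% of the negative and 2.28% of all windows. AGGTCA was in 15.96% of the positive, 11.96% of the negative and 12.2% of all windows. The full estrogen element (GGTCA, any 3 bases, then TGACC), which can overlap it, was in 0 positive, 0 negative and 4 of all windows. These matches describe the letters only.

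In 4 genes hCG raised the level in bERKO and lowered it in WT. Cadm3, a cell adhesion molecule, measured 7.27, 7.94 and 8.03 in bERKO hCG against 4.05, 4.15 and 4.05 in bERKO PMSG, and 4.10, 4.86 and 5.74 in WT hCG against 9.15, 7.50 and 8.44 in WT PMSG. The hCG and PMSG arrays did not overlap in either genotype, and the bERKO PMSG arrays lay at the floor. Its interaction of 7.12 (SE 0.66, adjusted p = 0.00364, limma) had the smallest p of all genes and was 6.73 without WT hCG replicate 1, with 3 probe sets from 3.97 to 7.12. Lrp11, a relative of the low-density lipoprotein receptor, measured 9.61, 9.91 and 9.48 in bERKO hCG against 7.03, 6.45 and 7.45 in bERKO PMSG, and 6.52, 6.97 and 8.98 in WT hCG against 10.77, 10.56 and 10.23 in WT PMSG. Its interaction was 5.72 (SE 0.75) with all arrays and 5.23 without WT hCG replicate 1, and again the arrays of each genotype did not overlap.

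Comp, a glycoprotein of the extracellular matrix, measured 10.36, 9.92 and 10.76 in bERKO hCG against 7.19, 6.94 and 5.73 in bERKO PMSG, and 5.38, 5.80 and 10.07 in WT hCG against 12.27, 11.69 and 11.70 in WT PMSG. WT hCG replicate 3 stood far above the other arrays of its group, and the interaction of 8.53 (SE 1.35) was 7.68 without WT hCG replicate 1 and at most 10.02 with any 1 array left out. Gnao1, the alpha subunit of the Go protein, measured 7.57, 7.66 and 7.49 in bERKO hCG against 6.43, 6.02 and 6.08 in bERKO PMSG, and 5.46, 5.96 and 5.91 in WT hCG against 6.68, 7.15 and 7.0 in WT PMSG. Its arrays were tight and did not overlap, with an interaction of 2.56 (SE 0.36), but its 3 probe sets had interactions from -0.26 to 2.56.

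In the other 4 genes hCG lowered the level in bERKO and raised it in WT. Hecw2, a ubiquitin ligase, measured 5.83, 7.14 and 6.50 in bERKO hCG against 8.43, 8.14 and 9.07 in bERKO PMSG, and 7.56, 8.42 and 7.90 in WT hCG against 6.18, 6.30 and 6.44 in WT PMSG. Its interaction was -3.71 (SE 0.53) and -3.91 without WT hCG replicate 1. Wipf3, a partner of the actin regulators of the WASP family, measured 6.67, 5.42 and 5.19 in bERKO hCG against 8.15, 6.99 and 8.60 in bERKO PMSG, and 8.72, 9.32 and 8.76 in WT hCG against 6.70, 6.51 and 7.21 in WT PMSG, an interaction of -4.28 (SE 0.67). For both genes the arrays of each genotype did not overlap.

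Col11a1, a chain of type XI collagen, measured 9.58, 8.06 and 8.67 in bERKO hCG against 11.18, 10.23 and 10.31 in bERKO PMSG, and 12, 12.25 and 11.06 in WT hCG against 8.17, 10.04 and 8.49 in WT PMSG, an interaction of -4.67 (SE 0.78). Crispld2, a secreted protein, moved least, with 11.17, 11.05 and 11.37 in bERKO hCG against 12, 12.10 and 12.48 in bERKO PMSG, and 12.79, 12.95 and 13.05 in WT hCG against 11.61, 11.79 and 12.07 in WT PMSG. Its interaction was -2.11 (SE 0.35). The interaction of Crispld2 passed in 9 and that of Col11a1 in 10 of the 12 fits with 1 array left out, whereas the other 6 opposite genes passed in all 12. The pattern itself was less steady than the interaction: without WT hCG replicate 1 the WT responses of Comp, Gnao1, Wipf3 and Col11a1 no longer passed, so that these 4 genes counted as responding in bERKO only.

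**Figure D3:**
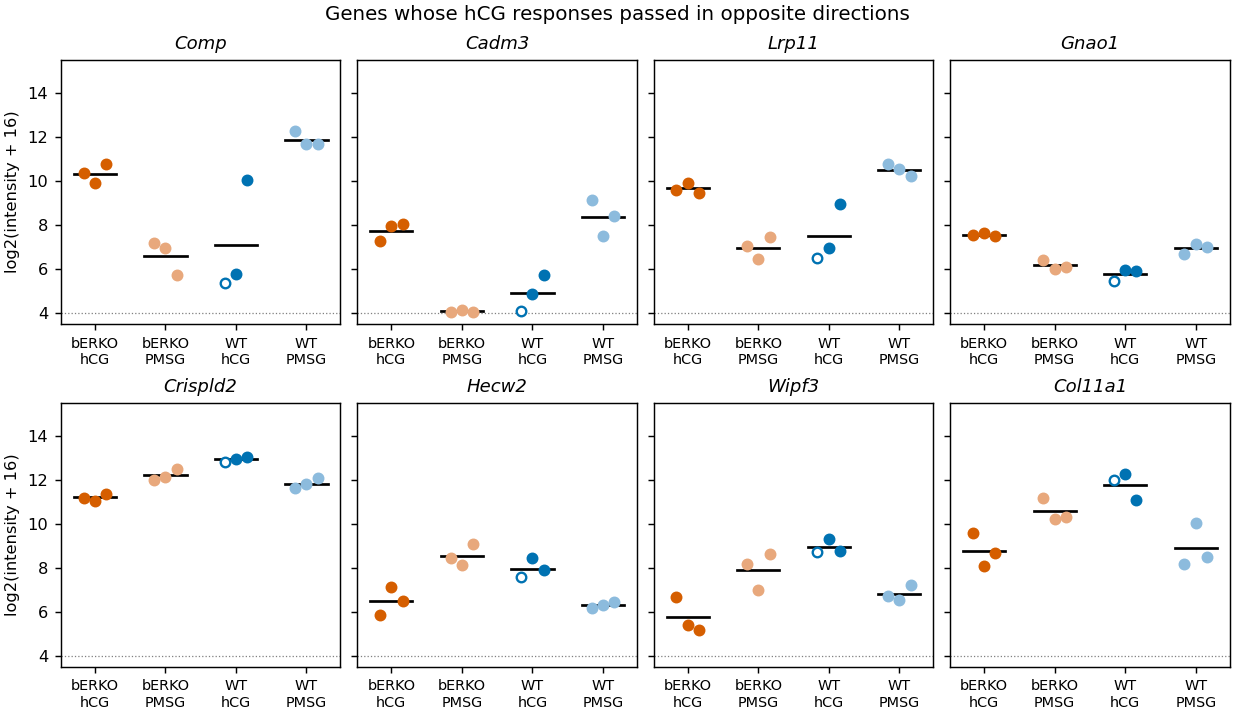
Level of the 8 genes with opposite responses, as log2(intensity + 16), on each of the 12 arrays. Points are arrays, short lines are group means (n = 3), the open circle is WT hCG replicate 1, and the dotted line is the floor of 4. In the upper row bERKO hCG lies above bERKO PMSG while WT hCG lies below WT PMSG, and the lower row runs the other way.

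Among the 212 genes with a response in bERKO only, 107 had a positive interaction. Their median response was 2.96 in bERKO and -0.70 in WT. Mpzl2, an adhesion protein of epithelia, measured 10.82, 10.61 and 11.83 in bERKO hCG against 5.59, 4.62 and 5.06 in bERKO PMSG, and 4.06, 4.04 and 4.03 in WT hCG against 6.39, 4.12 and 4.82 in WT PMSG. The bERKO hCG arrays lay above all others by over 4, the WT hCG arrays were at the floor, and the interaction of 7.06 (SE 0.74, adjusted p = 0.00671, limma) was 7.07 without WT hCG replicate 1, with 3 probe sets from 1.92 to 7.06. Wnt10b, a Wnt ligand, measured 7.83, 7.54 and 6.92 in bERKO hCG against 4.13, 4.24 and 4.12 in bERKO PMSG, and 4.68, 4.30 and 4.28 in WT hCG against 5.32, 4.50 and 5.35 in WT PMSG. It too was near the floor outside bERKO hCG, with an interaction of 3.91 (SE 0.45). Tram1l1, a membrane protein, had an interaction of 3.77 (SE 0.42), with 8.71 to 9.0 in bERKO hCG, 5.90 to 6.27 in bERKO PMSG, 5.81 to 6.39 in WT hCG and 6.65 to 7.58 in WT PMSG.

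Ptgfr, the receptor of prostaglandin F, which ends the life of the corpus luteum, measured 11.35, 11.53 and 10.81 in bERKO hCG against 5.20, 4.06 and 5.86 in bERKO PMSG, and 5.04, 7.33 and 7.69 in WT hCG against 8.12, 5.91 and 8.65 in WT PMSG. The bERKO arrays were far apart while the WT arrays overlapped, and the interaction of 7.06 (SE 1.12) was 6.24 without WT hCG replicate 1, and its 5 probe sets ran from 2.03 to 7.87. Lrrtm3, an adhesion protein of synapses, measured 9.13, 9.74 and 9.75 in bERKO hCG against 5.47, 6.93 and 4.29 in bERKO PMSG, and 6.11, 5.73 and 6.23 in WT hCG against 8.86, 7.73 and 8.60 in WT PMSG. Its WT arrays lay lower after hCG without overlap, but the WT response did not pass (-2.37, adjusted p = 0.0513, limma), so its class rests on the threshold. The interaction was 6.35 (SE 0.78), and its 4 probe sets ran from 3.82 to 6.35.

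Sfrp4, a secreted Wnt antagonist of luteinizing cells, had the largest interaction of all, 9.05 (SE 1.74, adjusted p = 0.0339, limma). It measured 14.34, 14.31 and 13.99 in bERKO hCG against 6.41, 5.99 and 4.32 in bERKO PMSG, and 6.74, 11.44 and 13.17 in WT hCG against 10.55, 10.35 and 11.70 in WT PMSG. WT hCG replicate 1 lay below every WT PMSG array and replicate 3 above them, so the WT response depended on the array. The interaction was 7.20 without WT hCG replicate 1 and passed in 2 of the 12 fits with 1 array left out. The 3 largest that no longer passed without WT hCG replicate 1 were Cemip, which breaks down hyaluronan (7.43 with all arrays, 7.49 without), the lipase Lipg (6.60 and 6.10) and the betaine methyltransferase Bhmt (6.24 and 6.51). The 3 probe sets of Cemip ran from 0.54 to 7.43 and the 3 of Lipg from 3.25 to 6.60.

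The 105 negative genes with a response in bERKO only fell after hCG in bERKO, with a median response of -2.67, while their median WT response was 0.24. Foxo1, a transcription factor of growing follicles that luteinization switches off, measured 11.75, 11.84 and 10.80 in bERKO hCG against 14.44, 14.37 and 14.46 in bERKO PMSG, and 14.15, 13.91 and 14.23 in WT hCG against 14.46, 14.47 and 14.27 in WT PMSG. It fell in bERKO by a response of -2.96, while WT had -0.30 (adjusted p = 0.681, limma), and the interaction was -2.66 (SE 0.41, adjusted p = 0.0135). Inhbb, the beta B subunit of inhibin and activin, measured 11.38, 11.35 and 12.09 in bERKO hCG against 14.39, 14.57 and 14.08 in bERKO PMSG, and 14.29, 14.10 and 14.65 in WT hCG against 14.77, 14.57 and 14.60 in WT PMSG. All bERKO hCG arrays lay below every other array, and the interaction was -2.44 (SE 0.40), -2.47 without WT hCG replicate 1.

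Esr1, which encodes estrogen receptor alpha, the receptor that bERKO mice retain, measured 7.08, 6.14 and 6.41 in bERKO hCG against 9.99, 10.34 and 9.65 in bERKO PMSG, and 7.88, 8.07 and 7.42 in WT hCG against 8.76, 8.43 and 8.87 in WT PMSG. The bERKO arrays were the highest after PMSG and the lowest after hCG, with no overlap between any groups, and the interaction was -2.55 (SE 0.45, adjusted p = 0.0236, limma). Its 3 probe sets ran from -3.89 to -2.55. The Esr1 gap of bERKO minus WT passed neither after PMSG (1.31, adjusted p = 0.257, limma) nor after hCG (-1.24, adjusted p = 0.0582, limma). Without WT hCG replicate 1 the interaction was -2.51 and no longer passed (adjusted p = 0.052, limma), and it passed in 5 of the 12 fits with 1 array left out.

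Mras, a small GTPase of the Ras family, measured 9.28, 9.03 and 9.13 in bERKO hCG against 12.28, 12.24 and 12.42 in bERKO PMSG, and 12.95, 11.92 and 11.51 in WT hCG against 11.04, 10.84 and 11.49 in WT PMSG, an interaction of -4.17 (SE 0.49). The bERKO hCG arrays lay below all others. They also did for the corepressor Cbfa2t3, with 7.96 to 8.12 in bERKO hCG, 10.38 to 10.69 in bERKO PMSG, 11.24 to 11.60 in WT hCG and 9.36 to 10.67 in WT PMSG (interaction -3.68, SE 0.46). Fndc5, the precursor of irisin, fell to 5.46 to 6.23 in bERKO hCG, against 9.63 to 10.55 in bERKO PMSG, with 7.65 to 8.12 in WT hCG and 8.74 to 8.82 in WT PMSG (interaction -3.55, SE 0.44). The ligase Rimklb (-3.40, SE 0.44) and the microtubule protein Mtcl1 (-3.26, SE 0.43) had WT responses of -0.01 and -0.15, so nearly all of the estimated difference lay in bERKO. The probe sets of these genes differed in size: the 4 of Rimklb ran from -3.40 to -0.55, the 2 of Mtcl1 from -3.26 to -1.25, the 2 of Fndc5 from -3.55 to -1.29, the 2 of Mras from -4.17 to -2.50 and the 4 of Cbfa2t3 from -3.79 to -1.61.

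The largest negative interactions of this class that held without WT hCG replicate 1 were those of Limch1, an actin-associated protein, Kazald1, a secreted protein, Tex14, a component of germ cell bridges, and the magnesium transporter relative Cnnm1. Limch1 measured 5.68, 5.85 and 5.71 in bERKO hCG against 10.38, 8.76 and 10.45 in bERKO PMSG, and 10.47, 9.97 and 8.45 in WT hCG against 7.0, 9.10 and 8.22 in WT PMSG, an interaction of -5.63 (SE 0.89), though its 4 probe sets ran from -5.67 to -0.64. Kazald1 had an interaction of -4.93 (SE 0.79), Tex14 of -4.92 (SE 0.79) and Cnnm1 of -4.63 (SE 0.84), with 3 probe sets from -4.63 to -1.32. Like 89 of the 116 negative genes, these 4 had their highest group mean in bERKO PMSG. That share is 76.7%, against 33.9% of all genes. Cldn11, a tight junction protein, Pla2g1b, a secreted phospholipase, and Lgr6, a receptor of R-spondins, had interactions of -4.77, -4.69 and -4.50 with all arrays, and -4.44, -3.90 and -4.30 without WT hCG replicate 1, when they no longer passed. The 4 probe sets of Pla2g1b ran from -4.69 to -0.55. Cldn11 had a response of -2.17 in bERKO (adjusted p = 0.0495, limma) and a larger one of 2.59 in WT (adjusted p = 0.0811, limma). Its class therefore rests on the threshold.

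**Figure D4:**
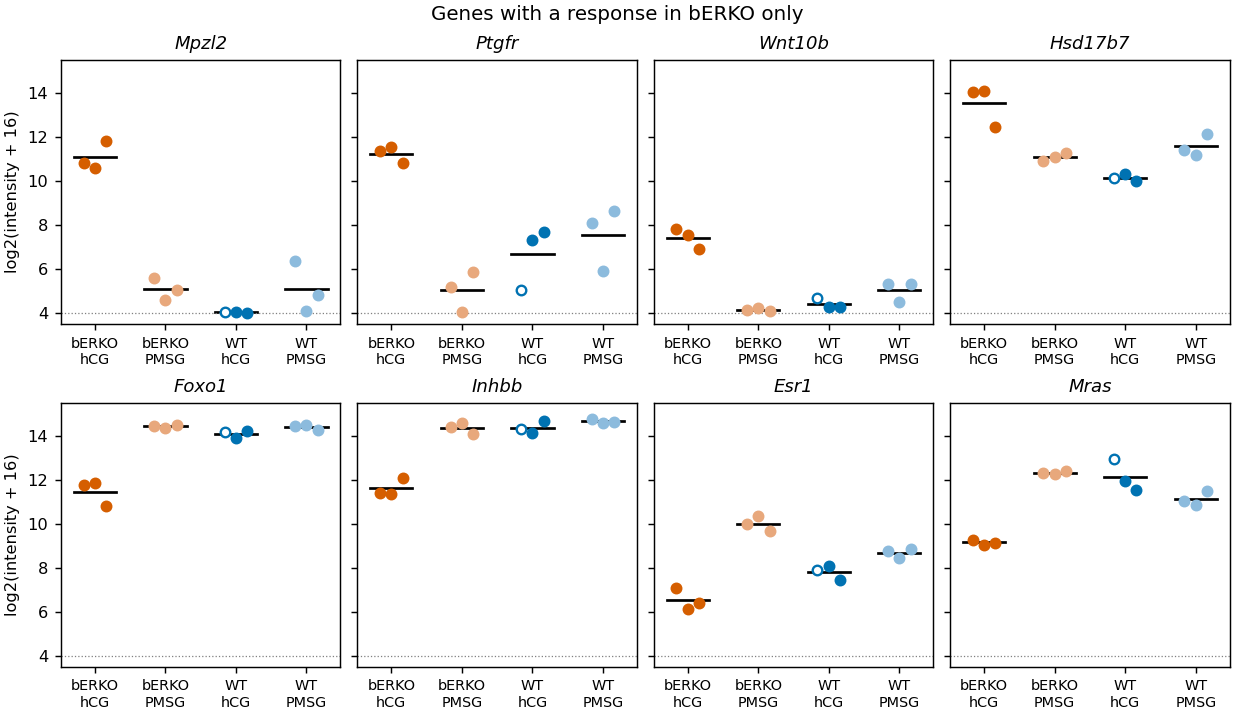
Level of 8 genes with a response in bERKO only, as log2(intensity + 16), on each of the 12 arrays. Points are arrays, short lines are group means (n = 3), the open circle is WT hCG replicate 1, and the dotted line is the floor of 4. The bERKO hCG arrays stand above all others for Mpzl2, Ptgfr, Wnt10b and Hsd17b7 and below all others for Foxo1, Inhbb, Esr1 and Mras.

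In 13 genes the WT response alone passed, 9 with a positive and 4 with a negative interaction. Ahr, the aryl hydrocarbon receptor, measured 8.14, 8.56 and 8.01 in bERKO hCG against 8.21, 7.66 and 8.05 in bERKO PMSG, and 7.38, 7.01 and 7.56 in WT hCG against 9.81, 9.79 and 9.92 in WT PMSG. The bERKO arrays overlapped and the WT arrays were far apart, with an interaction of 2.79 (SE 0.38) and of 2.82 without WT hCG replicate 1. Ahr passed in all 12 fits with 1 array left out. Akr1c18, which breaks down progesterone, measured 8.42, 8.62 and 7.88 in bERKO hCG against 7.18, 8.33 and 7.86 in bERKO PMSG, and 6.07, 7.93 and 6.07 in WT hCG against 9.31, 9.60 and 9.10 in WT PMSG (interaction 3.17, SE 0.69), and passed in 1 of those fits. The calcium channel subunit Cacnb1 had 4.65 to 5.80 in bERKO hCG and 5.98 to 6.32 in bERKO PMSG, a response that did not pass, and rose in WT, with 5.76 to 6.19 in WT hCG against 4.43 to 4.70 in WT PMSG. Its interaction was -2.38 (SE 0.43), and its 4 probe sets ran from -2.38 to 0.14.

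Larger responses in the same direction were rare among the passing genes. Lbh, a transcriptional cofactor, measured 11.74, 11.62 and 11.22 in bERKO hCG against 7.40, 7.28 and 7.32 in bERKO PMSG, and 9.99, 10.17 and 10.47 in WT hCG against 8.44, 8.39 and 8.61 in WT PMSG. It rose in both genotypes without overlap, by 4.19 in bERKO and 1.73 in WT, an interaction of 2.46 (SE 0.34) that was 2.35 without WT hCG replicate 1. Its 3 probe sets ran from 0.48 to 2.51. Egln3, a prolyl hydroxylase that marks hypoxia-inducible factors for breakdown, rose by 6.30 in bERKO and 3.61 in WT. It measured 11.06, 10.64 and 11.69 in bERKO hCG against 5.53, 4.61 and 4.35 in bERKO PMSG, and 8.53, 8.61 and 9.28 in WT hCG against 5.53, 4.67 and 5.38 in WT PMSG. Its interaction of 2.68 (SE 0.57, adjusted p = 0.0453, limma) was 2.54 without WT hCG replicate 1 and passed in 2 of the 12 fits with 1 array left out.

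Ptgs2 and Pgr, well-known genes of the ovulatory response, did not pass. Ptgs2, an inducible prostaglandin synthase, measured 14.21, 14.18 and 14.32 in bERKO hCG against 4.34, 4.03 and 6.13 in bERKO PMSG, and 8.18, 12.23 and 13.62 in WT hCG against 4.05, 4.59 and 5.12 in WT PMSG. Its interaction was 2.65 (SE 1.51, adjusted p = 0.441, limma) and 1.06 without WT hCG replicate 1, and its 2 probe sets ran from 2.65 to 4.60. Pgr, the progesterone receptor, measured 14.06, 13.98 and 14.04 in bERKO hCG against 6.0, 4.63 and 5.96 in bERKO PMSG, and 5.21, 13.10 and 13.38 in WT hCG against 6.67, 6.45 and 6.48 in WT PMSG. Its interaction of 4.47 (SE 2.27) was 1.79 without WT hCG replicate 1, and it passed neither way. The 3 probe sets of Pgr ran from 2.13 to 4.47. For both genes WT hCG replicate 1 was far below the other arrays of its group, and all 3 bERKO hCG arrays lay above every WT hCG array.

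Star, which carries cholesterol into mitochondria, had interactions of 2.48 (SE 1.18) with all arrays and 1.20 without WT hCG replicate 1, and did not pass. The 3 probe sets of Star ran from 2.48 to 4.83. Cyp11a1, which makes pregnenolone, missed the threshold with 6.60 (SE 1.46, adjusted p = 0.0526, limma) and was 5.51 without WT hCG replicate 1, while its 3 probe sets ran from 0.53 to 6.60. It measured 13.66, 13.75 and 13.81 in bERKO hCG against 8.82, 9.68 and 5.44 in bERKO PMSG, and 8.68, 11.76 and 12.12 in WT hCG against 11.35, 11.29 and 12.42 in WT PMSG. Its low value of 5.44 was on bERKO PMSG replicate 3. Fshr, the receptor of follicle-stimulating hormone, had an interaction of -1.88 (SE 0.71, adjusted p = 0.235, limma), with 8.92 to 9.0 in bERKO hCG, 9.57 to 11.64 in bERKO PMSG, 10.75 to 12.32 in WT hCG and 11.37 to 11.71 in WT PMSG.

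Gene lists give the same comparison by function. Of 336 listed genes in 22 lists, 311 were measured and 15 passed, 4.82% against 1.31% of all genes; the lists were written with earlier results of these data known, so the excess is no support. Of 16 measured genes of cumulus expansion and EGF-like ligands, which loosen the cells around the oocyte, 0 passed. Their median interaction was 2.30, against -0.11 over all genes. It was the highest of the lists with all arrays, but 1.06 without WT hCG replicate 1, below the endothelial (1.87), cholesterol (1.65), luteal (1.52) and stromal (1.27) lists. In bERKO 12 of the 16 rose after hCG, against 7.05% of all genes, and in WT 3 of the 16 rose, against 0.731% of all genes, with the stricter p threshold that applied in WT. The member with the smallest p was Il6, at 1.60 (adjusted p = 0.0993, limma). Of 19 immediate early genes 0 passed, with a median of 1.57 that was 0.93 without WT hCG replicate 1, and Jun came nearest (2.08, adjusted p = 0.0788). Of 19 ovulatory transcription factors 0 passed, with a median of 0.77, and Bcl6 came nearest (1.83, adjusted p = 0.0869).

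Over all genes 1.31% passed. Of 16 ovulatory proteases and inhibitors 1 passed, with a median of 0.65: Adamts4, a protease of the cumulus matrix proteoglycan versican. It measured 10.45, 11.26 and 10.41 in bERKO hCG against 5.77, 6.62 and 4.09 in bERKO PMSG, and 5.95, 8.32 and 8.54 in WT hCG against 8.12, 6.82 and 7.77 in WT PMSG. The WT arrays overlapped, and the interaction of 5.18 (SE 1.04) was 4.35 without WT hCG replicate 1, when it no longer passed (adjusted p = 0.0617, limma). Of 21 components of cyclic AMP signalling 1 passed, the phosphodiesterase Pde4b (2.77, SE 0.54), which degrades cyclic AMP, although its 6 probe sets ran from -0.41 to 3.16. The median of that list was -0.02 and changed sign in 12 of the alternative fits, among them those with averaged probe sets and without WT hCG replicate 1.

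Of 17 genes of cholesterol synthesis and uptake 2 passed, Insig1 and Idi1, where 1.31% of all genes passed. The list had a median interaction of 1.84, and of 1.65 without WT hCG replicate 1, with 14 of the 17 estimates positive and a range from -1.62 to 3.31. Their median response was 0.44 in bERKO and -0.92 in WT. Insig1, which holds back sterol synthesis, measured 13.16, 13.21 and 12.86 in bERKO hCG against 12.41, 12.72 and 12.79 in bERKO PMSG, and 10.67, 11.39 and 11.66 in WT hCG against 12.94, 12.55 and 12.86 in WT PMSG. Its response was 0.44 in bERKO, which did not pass, and -1.55 in WT, where it fell, an interaction of 1.99 (SE 0.41). Idi1, an isomerase of the same pathway, had an interaction of 2.30 (SE 0.48), from responses of 1.07 in bERKO and -1.23 in WT. Without WT hCG replicate 1 neither passed, at 1.70 for Insig1 and 2.12 for Idi1.

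Of 13 steroidogenic genes 2 passed, Akr1c18 and Hsd17b7, where 1.31% of all genes passed. The median of the list was 0.95. Hsd17b7, an enzyme of both estradiol and cholesterol synthesis, measured 14.04, 14.09 and 12.47 in bERKO hCG against 10.92, 11.09 and 11.29 in bERKO PMSG, and 10.14, 10.31 and 10.01 in WT hCG against 11.41, 11.19 and 12.13 in WT PMSG. Its arrays did not overlap in either genotype, and its interaction of 3.86 (SE 0.59, adjusted p = 0.0129, limma) was 3.85 without WT hCG replicate 1, with 4 probe sets from 0.66 to 6.07. Of 7 luteal markers 3 passed, Sfrp4, Ptgfr and Akr1c18, all positive, where 0.676% of all genes passed with a positive interaction. Akr1c18 counts in both the steroidogenic and the luteal list. The median of the luteal list was 2.12, and 1.52 without WT hCG replicate 1. The mean of the luteal markers ran from 10.73 to 11.22 in bERKO hCG, 7.72 to 8.22 in bERKO PMSG, 7.88 to 9.92 in WT hCG and 9.18 to 10 in WT PMSG.

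Of 22 measured preovulatory genes 2 passed, Foxo1 and Inhbb, both negative, where 1.31% of all genes passed. The median of the list was -0.33. In bERKO 7 of the 22 fell and 3 rose after hCG, where 11.9% of all genes fell and 7.05% rose. In WT 0 of the 22 passed either way, where 2.08% of all genes did. Of 12 nuclear steroid receptors and coregulators 1 passed, Esr1, with a median of -0.21 that was 0.03 without bERKO PMSG replicate 2 and 0.06 without bERKO hCG replicate 3. Of 20 genes of hypoxia and glycolysis 2 passed, Egln3 and the hypoxia-induced gene Ndrg1 (2.73, SE 0.56, and 2.28 without WT hCG replicate 1, when it no longer passed, with 5 probe sets from 0.17 to 3.31), with a median of 0.48. Of 25 Wnt and TGF-beta family genes 1 passed, Sfrp4, with a median of 0.18 that was -0.005 with each array centred on its median. Of 22 proliferation genes and 14 heat shock and stress genes 0 passed, with medians of -0.23 and 0.19. Mcm6, of the replication helicase, came nearest among the proliferation genes at -1.15, and the chaperone gene Hspa1b in the stress list at -1.44.

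**Figure D5:**
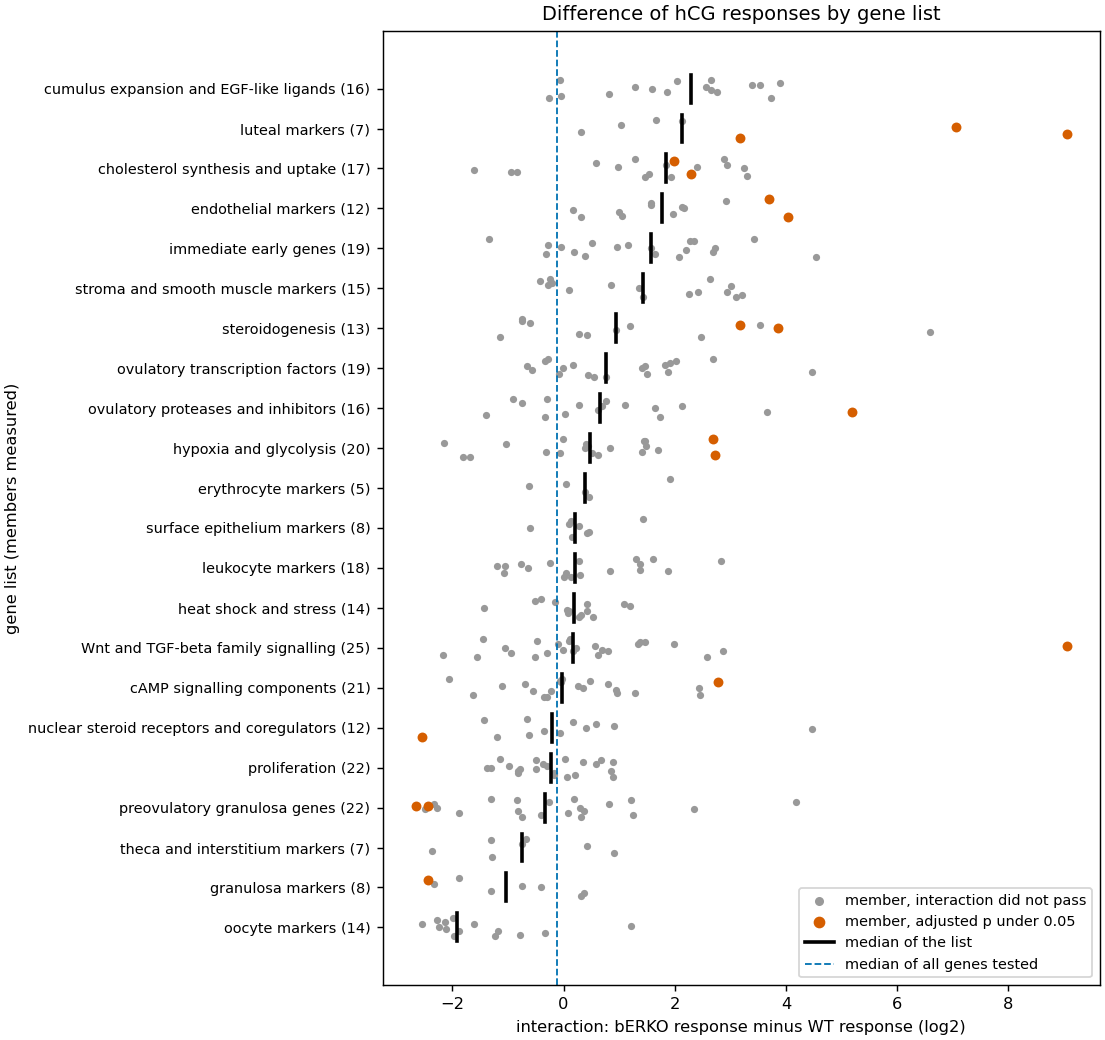
Interaction (log2) of the measured members of 22 gene lists, ordered by the median of the list. Points are genes, orange where the adjusted p was under 0.05, black bars are list medians and the dashed line is the median of all genes, -0.11. With all 12 arrays, cumulus and luteal lists lie at the top, with medians of 2.30 and 2.12, and oocyte markers at the bottom, with a median of -1.92.

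Among markers of cell types other than granulosa and luteal cells, members passed in the endothelial list, where 1.31% of all genes passed. At that share a list this short is likely to hold 0, so the counts do not set the other lists apart. All 12 endothelial markers had a positive estimate and 2 passed, Emcn and Cdh5, with a list median of 1.78, and of 1.87 without WT hCG replicate 1. Emcn, endomucin of small vessels, measured 8.04, 8.60 and 7.45 in bERKO hCG against 4.24, 4.77 and 4.18 in bERKO PMSG, and 6.02, 5.41 and 5.0 in WT hCG against 5.56, 5.43 and 5.65 in WT PMSG, an interaction of 3.70 (SE 0.50). Cdh5, the adhesion protein of endothelial junctions, had an interaction of 4.03 (SE 0.70), with 2 probe sets from 1.62 to 4.03. The summed intensity of the 12 markers ran from 1644 to 3213 in bERKO hCG, 420 to 782 in bERKO PMSG, 451 to 715 in WT hCG and 511 to 996 in WT PMSG, so the bERKO hCG arrays lay above all others. In bERKO hCG 0 of the 12 had all arrays under 5, against 2 in bERKO PMSG, 1 in WT hCG and 0 in WT PMSG. The highest group mean was in bERKO hCG for 105 of the 123 positive genes too, and in WT PMSG for the other 18. Over all genes it was in bERKO hCG for 24.2%. The part of captured vessel cells in the positive interactions was not tested.

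Of 15 stromal and smooth muscle markers 0 passed and 11 were positive, with a median of 1.43, and Mgp, matrix Gla protein, came nearest (3.20, adjusted p = 0.16, limma). Their summed intensity was 7492 to 20519 in bERKO hCG, 1163 to 5018 in bERKO PMSG, 2709 to 3445 in WT hCG and 819 to 8295 in WT PMSG. Of 18 leukocyte markers 0 passed, with a median of 0.20 and Cd52 nearest at 2.82. Their summed intensity was 1055 to 2442 in bERKO hCG, 554 to 1593 in bERKO PMSG, 505 to 756 in WT hCG and 528 to 910 in WT PMSG. The leukocyte median was -0.08 without bERKO PMSG replicate 1. The part of captured stroma and leukocytes in the positive interactions was not tested either.

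Of 14 oocyte markers 0 passed. Of their estimates 13 were negative and 1 positive, with a median of -1.92, and of -1.64 without WT hCG replicate 1. Gdf9, an oocyte growth factor, had an interaction of -1.98 (SE 0.89, adjusted p = 0.314, limma). The summed intensity of the markers was 1474 to 3920 in bERKO hCG, 8292 to 24855 in bERKO PMSG, 803 to 1691 in WT hCG and 773 to 7037 in WT PMSG. It was highest in bERKO PMSG, the group that also held the highest mean of 89 negative genes, and the part of captured oocyte RNA in the negative interactions was not tested. Granulosa markers had a median of -1.03, with Inhbb as the 1 member of 8 that passed, where 1.31% of all genes passed. Their summed intensity was 41294 to 49020 in bERKO hCG, 72023 to 89116 in bERKO PMSG, 75043 to 88890 in WT hCG and 84780 to 97697 in WT PMSG. Of 7 theca, 5 erythrocyte and 8 surface epithelium markers 0 passed, with medians of -0.74, 0.39 and 0.22, and the nearest members were Aldh1a1 (-1.29), Hbb-b2 (1.92) and Krt19 (1.42).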

How the data were processed

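Per the labels, 25 ng of laser-captured RNA per sample was amplified, biotinylated and hybridised to 1-colour arrays. The deposited table holds a linear intensity for each probe set and array, and every array has a 2% trimmed mean of 500.0. The software behind them is not named in the labels. Of 45101 probe sets, 64 controls were left out. Of the rest, 34945 named 1 gene, 932 several and 9160 were not listed. Intensities of the 45037 kept probe sets were quantile normalized and used as log2(intensity + 16). Where a gene had several probe sets naming it alone, the brightest on average stood for it, which left 18193 genes.

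Group means were fitted over all 12 arrays with limma 3.58.1 (R 4.3.3, lmFit and eBayes), two-sided, with 1 spread per gene. The fit was also run on simulated data with the same spread on every array, which does not model the uneven quality of these arrays. The labels' replicate numbers were not used to pair arrays in the main fit. Deviations from group means correlated between -0.08 and 0.12 for same-numbered arrays and between -0.12 and 0.07 for the others. These correlations cannot decide whether the numbers pair arrays, for example by a shared day. The members and the 22 gene lists were chosen with earlier results of these data known.

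Named genes were, among passing genes with an established symbol, the 4 largest interactions per class and sign that also passed without WT hCG replicate 1, the 5 smallest p per sign, the 3 largest per sign lost without that array, up to 4 passing members per list (or its smallest p), and 12 fixed genes, 8 of which were measured; the others are not analysed here. Figures were drawn with matplotlib 3.10.9.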

Additional observations from a re-analysis of the deposited data

Results flagged for a closer look

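The 239 genes passed a test for a difference between genotypes in the response to 1 treatment, the interaction term of the limma fit. Some of them may be false calls at this threshold, and 69 of the 239 passed in all 12 fits with 1 array left out. Of the named genes that passed, 24 passed in all 12 fits with 1 array left out. Those with a positive interaction were Comp (8.53), Cadm3 (7.12), Mpzl2 (7.06), Ptgfr (7.06), Lrrtm3 (6.35), Lrp11 (5.72), Wnt10b (3.91), Hsd17b7 (3.86), Tram1l1 (3.77), Emcn (3.70), Ahr (2.79), Gnao1 (2.56) and Lbh (2.46). Those with a negative one were Limch1 (-5.63), Kazald1 (-4.93), Tex14 (-4.92), Wipf3 (-4.28), Mras (-4.17), Hecw2 (-3.71), Cbfa2t3 (-3.68), Fndc5 (-3.55), Rimklb (-3.40), Mtcl1 (-3.26) and Foxo1 (-2.66).

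Col11a1 (-4.67) and Inhbb (-2.44) passed in 10 of those fits, Crispld2 (-2.11) in 9 and Cdh5 (4.03) in 8. Lipg (6.60), Cnnm1 (-4.63) and Cacnb1 (-2.38) passed in 6, Esr1 (-2.55) in 5 and Bhmt (6.24) in 4. Cemip (7.43), Pla2g1b (-4.69), Pde4b (2.77) and Ndrg1 (2.73) passed in 3 of them. Sfrp4 (9.05), Adamts4 (5.18), Cldn11 (-4.77), Lgr6 (-4.50), Egln3 (2.68) and Idi1 (2.30) passed in 2, and Akr1c18 (3.17) and Insig1 (1.99) in 1. A fit with 1 array fewer also has less power. The leave-one-out values of Sfrp4 ran from 7.20 to 10.41, and those of Esr1 from -2.82 to -2.35.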

How the results depend on the processing

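Over the alternatives, 1001 values of the 62 named genes kept their side of the threshold, 222 lost the call, 11 gained it and 0 changed sign; most of these genes were named for large interactions in the same data, so their signs show little about stability. With 1 array left out, passing genes ran from 36 to 214 (positive) and 43 to 194 (negative); those responding in bERKO only ran from 77 to 347, in WT only from 1 to 21, in opposite directions from 1 to 15, in the same direction from 1 to 7, and in neither from 0 to 23. The replicate block gave 69 positive and 60 negative genes (121 in bERKO only, 3 in WT only, 2 opposite, 2 in the same direction, 1 in neither). The offset of 1 gave 46 and 49 (88, 3, 2, 1 and 1 in that order of patterns), and leaving out both WT hCG replicate 1 and bERKO PMSG replicate 3 gave 65 and 55 (90, 8, 15, 7 and 0). Array weights gave 224 and 196, with 43 in WT only, 41 opposite, 19 in the same direction and 5 in neither. Leaving out genes with a mean under 6 gave 154 positive and 188 negative, with 22 in WT only, 20 opposite, 13 in the same direction and 1 in neither. Values as deposited gave 124 and 149 (8 in neither), centring on array medians 112 and 99 (8 in WT only), and averaged probe sets 137 and 116 (1 in the same direction, 5 in neither). Counting a response from a size of 1 gave 140 in bERKO only, 69 opposite, 14 in the same direction and 1 in neither. Centring moved the median interaction of all genes to -0.20, against -0.11. Of 153 passing genes with several probe sets, 27 had probe sets of opposite sign. The cause of these shifts was not tested. The number of arrays limits the precision.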

Other observations

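The genes with a response in WT only include members that the rule for named genes did not pick; the ones given here were chosen after their values were seen. Scube1, a secreted and membrane-bound glycoprotein, and Nid2, a protein of basement membranes, had responses of -0.23 and -0.78 in bERKO, which did not pass, and rose in WT by 2.58 and 2.16, so that their interactions were -2.81 and -2.94. Reck, an inhibitor of matrix metalloproteases, had a response of 0.42 in bERKO and of -1.80 in WT, an interaction of 2.22. Ces2g, a carboxylesterase, had 0.96 in bERKO and -3.13 in WT, an interaction of 4.08. The 2 passing genes without a passing response in either genotype were Hoxd11, a homeobox gene, at 1.80 in bERKO and -2.22 in WT, and Slc7a5, an amino acid transporter, at -0.60 in bERKO and 1.15 in WT. Without WT hCG replicate 1, 0 of these 6 genes passed, with the sign of each interaction kept.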
